A study of Mus musculus with 8 samples.

Results

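Astrocyte nuclei carrying RNA of Slc6a11 (the GABA transporter GAT-3) and Agt (angiotensinogen) were examined in single-nucleus RNA-seq of mouse forebrain. They are called positive nuclei here. A nucleus was gated as an astrocyte when at least 2 of the 6 genes Aqp4, Gja1, Slc1a3, Slc7a10, Fgfr3 and Gldc were detected with at least 3 unique molecular identifiers (UMIs, counted molecules) in sum. It also had at most 2 UMIs of the neuronal genes Rbfox3, Snap25 and Syt1, and 0 UMIs of Mog, Mag, Pdgfra, Cx3cr1 and Flt1, which mark other glia and endothelium. Positive nuclei were chosen by measured counts of these genes, having at least 2 UMIs of Slc6a11 and Agt together. They numbered 1145, which was 42.9% of the 2671 gated astrocyte nuclei and 2.36% of the 48468 barcodes that passed filters on depth (500 UMIs or more, 300 genes or more) and on mitochondrial RNA (5% of UMIs or less). A further 916 gated nuclei had 0 UMIs of both genes and are called negative nuclei, and 610 had 1 UMI.

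The nuclei came from a cube of perilesional forebrain of male Swiss Webster mice aged 10 weeks, in 8 libraries, 2 each from control mice, mice with BCAS surgery, mice with TBI (traumatic brain injury) surgery and mice with both (BCAS+TBI). BCAS is an abbreviation that the labels do not spell out, and the series' title speaks of cerebral hypoperfusion. The labels number the libraries of a group as biological replicates without saying how many mice each holds. The time from surgery to collection, the lesion's place and the treatment of the controls are not given in the sources used here. Positive nuclei per library ranged from 72 in TBI 2 to 212 in TBI 1.

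Astrocytes differ by brain region. Lhx2 and Mfge8 are known for astrocytes of the telencephalon (cortex, hippocampus and striatum), and Slc6a11, Agt, Itih3 and Slc6a9 for those of the diencephalon, midbrain and hindbrain, although cortical astrocytes also use GAT-3. GAT-3 clears GABA from around synapses. Angiotensinogen, the precursor of the angiotensin peptides, is made in the brain mainly by astrocytes.

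The 250 bases before the start of each of the genes that define the nuclei are shown, because the gate rests on their RNA and the genes differ in the kind of promoter (RefSeq, build GRCm38.p6, 5′ to 3′ on the gene's strand). Capitals mark every CG pair and the letters TATAAA.
Slc6a11, chr6:114130991-114131240, plus strand: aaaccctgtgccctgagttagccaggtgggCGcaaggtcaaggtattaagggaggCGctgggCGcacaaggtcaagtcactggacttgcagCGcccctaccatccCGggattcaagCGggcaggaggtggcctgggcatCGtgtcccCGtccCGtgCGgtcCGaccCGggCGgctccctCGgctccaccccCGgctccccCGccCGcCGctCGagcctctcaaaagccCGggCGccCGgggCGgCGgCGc
Agt, chr8:124569707-124569956, minus strand: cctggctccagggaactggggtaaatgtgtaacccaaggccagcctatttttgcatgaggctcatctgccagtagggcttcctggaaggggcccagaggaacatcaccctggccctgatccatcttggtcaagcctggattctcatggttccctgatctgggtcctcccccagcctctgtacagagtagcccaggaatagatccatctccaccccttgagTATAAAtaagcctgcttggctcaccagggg
The Slc6a11 window held 25 CG pairs, against a median of 6 over 32851 promoters, and the Agt window held 0. TATAAA was found in the Agt window and not in that of Slc6a11, and 12.4% of all promoters held it on either strand. The letters TTGGCA (an NFI half-site) and ATTGTT (a SOX motif) were searched on both strands and lay in neither window. They lay in 12.3% and 9.42% of all promoters. These matches describe the letters only.

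The 8 libraries held 28118725 to 56135192 UMIs and fell into 2 sets by this total, each with 1 library of every group. Set 1 (control 1, BCAS 1, TBI 1 and BCAS+TBI 2) held the 4 shallower libraries and set 2 the deeper ones. Set and surgery can be told apart, but the sets differed widely: among positive nuclei, 1024 of 5465 genes tested passed an adjusted p of 0.05 between them (edgeR's quasi-likelihood test with Benjamini-Hochberg adjustment, as throughout). Of all barcodes, 289 sequences occurred in more than 1 library, and 1 sequence was a positive nucleus in more than 1 library. Positive nuclei had a median of 2034 UMIs and negative nuclei 1774.

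Of the genes that define the gate, Slc6a11 ranged from 1226 to 1615 CPM (a gene's UMIs per 1000000 UMIs, summed over the positive nuclei of a library), a narrow span. Agt ranged from 344 to 946 CPM. It was 625, 946, 612 and 713 CPM in the libraries of set 1, and 347, 344, 351 and 353 CPM in those of set 2. The sets did not overlap for Agt, whereas every group had 1 high and 1 low library. Both genes were detected in 616 of the positive nuclei, Slc6a11 alone in 470 and Agt alone in 59. Exactly 2 UMIs of both genes together were found in 345 positive nuclei, 3 in 257 and 4 or more in 543. For comparison with other cell types, at least 2 UMIs were found in 11 of 1265 nuclei gated as oligodendrocytes (0.87%, exact binomial 95% interval 0.435 to 1.55%, median 1710 UMIs). The share was 4.66% among 35894 nuclei gated as neurons, whose median was 6171 UMIs. The part of free RNA in these counts was not tested.

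The astrocyte label was checked against other markers. Of 4 astrocyte markers outside the gate (Slc1a2, Aldh1l1, Etnppl and Itih3) the summed level in positive nuclei was 4947 to 8685 CPM, lower than the 7054 to 9770 CPM of negative nuclei in 8 of 8 libraries. Most of this sum was Slc1a2, the only 1 of the 4 that passed as lower in positive nuclei. Aldh1l1, Etnppl and Itih3 passed as higher, although Aldh1l1 did not once nuclei with meningeal genes, described below, were left out. Markers of other types summed in positive nuclei to 88.9 to 179 CPM for 5 general neuron markers, 209 to 510 CPM for 5 oligodendrocyte markers and 49.3 to 148 CPM for 6 microglia markers. For 6 markers of thalamic neurons the sum was 3191 to 4881 CPM in positive and 2861 to 4023 CPM in negative nuclei, higher in positive nuclei in 8 of 8 libraries. Most of it was Rora, a nuclear receptor that astrocytes also express, at 2554 to 4119.7 CPM (median 3011) in positive nuclei, whereas Slc17a6, the vesicular glutamate transporter of thalamic neurons, was at 6.84 to 29.1 CPM (median 16.96) in positive and 6.33 to 45.7 CPM (median 22.3) in negative nuclei. None of those markers was at 0 UMIs over all libraries. Itih3, Slc7a10 and Etnppl, which came with the definition of these nuclei, were all more abundant in positive than in negative nuclei. Slc7a10, a transporter of serine and other small neutral amino acids, is a gate gene and is given without a test. It was at 314 to 458 CPM (median 413) in positive nuclei and 131 to 319.6 CPM (median 217) in negative nuclei. The ranges overlapped slightly, and positive nuclei were higher in 8 of 8 libraries.

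To determine what else set these nuclei apart, positive nuclei were compared with negative nuclei of the same libraries. Genes higher in positive nuclei included Itih3, Etnppl, Erbb4, Kcnd2 and Gria1, with log2 fold changes of 1.97 to 2.76. Of 6647 genes tested outside the 16 genes of the gate, 796 passed (12%), of which 427 were higher (6.42% of those tested) and 369 lower (5.55%) in a model with the library as a block. A higher level in all 8 libraries was found for 264 genes, called or not, 3.97% of those tested. Itih3 (chr14:30908572-30923760, build GRCm38), a heavy chain of the inter-alpha-trypsin inhibitors that bind hyaluronan, lay at 319 to 504 CPM (median 442) in positive nuclei and 58.8 to 142 CPM (median 108) in negative nuclei, and the ranges did not overlap (log2 fold change 1.97 ± 0.11 SE, adjusted p = 1.86e-20). Etnppl (chr3:130617448-130637521), which breaks down phosphoethanolamine, lay at 67.5 to 135 CPM (median 102) and 0 to 33.6 CPM (median 12.5), again without overlap (log2 fold change 2.76 ± 0.25 SE, adjusted p = 4.13e-13). Since both genes were given as markers of these nuclei with earlier results known, they are not independent support. DESeq2 called 444 genes, all of them among those called here.

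The 12 genes with the largest positive fold changes, each higher in 8 of 8 libraries, included further transmembrane and signalling genes. Erbb4 (chr1:68032186-69108059), a receptor for neuregulins, rose from 243 ± 158 CPM (SD, n = 8) in negative to 1398 ± 298 CPM in positive nuclei, and its lowest positive library, at 1021 CPM, was above its highest negative library, at 542 CPM. Kcnd2, a voltage-gated potassium channel, was at 597 ± 224 CPM and 2318 ± 469.9 CPM (log2 fold change 2.05 ± 0.08 SE). Gria1, an AMPA-type glutamate receptor subunit, was at 181 ± 52.1 CPM and 787 ± 193 CPM (2.15 ± 0.10 SE). Neurons also express these 3 genes. The summed level of the 5 general neuron markers was 88.9 to 179 CPM in positive nuclei and 111 to 248 CPM in negative nuclei, lower in positive nuclei in 7 of 8 libraries, whereas the sum over the thalamic neuron markers was higher in 8 of 8, and the part of neuronal RNA in these values was not tested. All 3 were also called among nuclei with 0 UMIs of the neuronal gate genes. Spon1, which encodes a secreted matrix protein, was at 243 ± 28.4 CPM in positive and 43.1 ± 15.6 CPM in negative nuclei. Tmem117 had the largest change (2.92 ± 0.20 SE, adjusted p = 2.02e-17). Cdh22, Pipox (an oxidase of pipecolate and sarcosine), Ppp1r14c, Trp63 and Arhgef28 completed the 12, with log2 fold changes from 1.95 to 2.57.

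**Figure D1:**
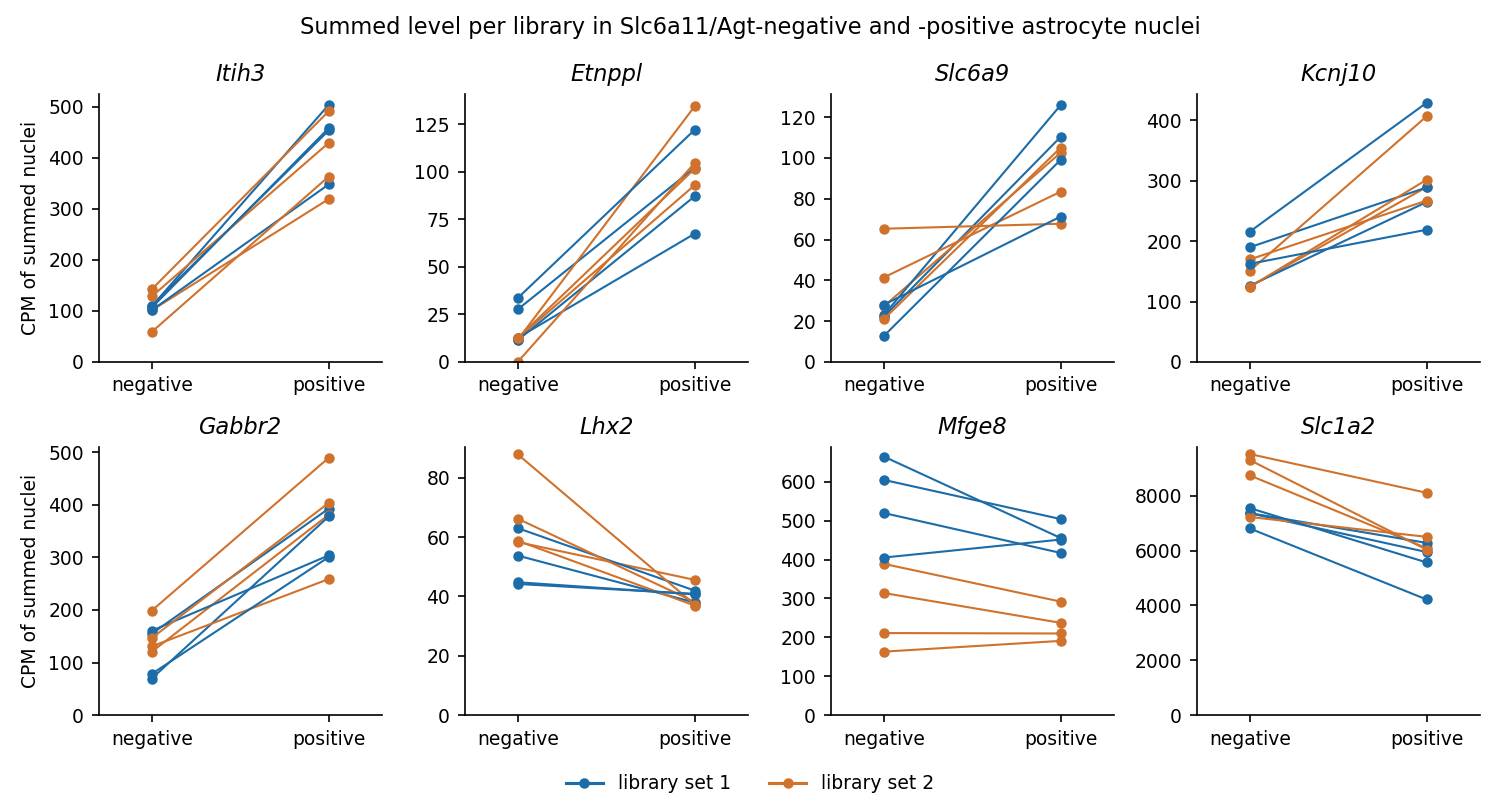
Summed level of 8 genes in CPM (vertical axes, starting at 0) in negative and positive astrocyte nuclei, with a line for each library coloured by library set. Itih3, Etnppl, Slc6a9, Kcnj10 and Gabbr2 rise in 8 of 8 libraries, Lhx2 and Slc1a2 fall in 8 of 8, and Mfge8 falls in 6.

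The 12 genes with the largest negative fold changes included Slc6a20a, Adam12, Cemip, Bnc2, Lrrk1, Lama1, Slc13a4, Eya2, Col25a1, Bmp6 and Thbs4. Several of them, such as Slc6a20a, Bnc2 and Slc13a4, are known from fibroblasts of the meninges that cover the brain. Slc6a20a lay at 63.04 to 198 CPM (median 111) in negative nuclei and 0 to 18.5 CPM (median 3.18) in positive nuclei. Over 4 fibroblast markers the summed level was 66.5 to 157 CPM in negative and 25.1 to 73.9 CPM in positive nuclei, and over 2 tanycyte markers 50.6 to 144 CPM and 6.46 to 47.5 CPM, both lower in positive nuclei in 8 of 8 libraries. At least 3 UMIs of 9 such genes (Slc6a20a, Bnc2, Slc13a4, Cemip, Slc6a13, Eya2, Ranbp3l, Adam12 and Col25a1, chosen after their values were seen) were found in 84 of 916 negative and 12 of 1145 positive nuclei, called meningeal-gene nuclei here. A further 2 negative nuclei, in TBI 1 and BCAS+TBI 2, held 94 and 1703 UMIs of haemoglobin genes. Without all of these, 630 genes passed (10%), of which 344 were higher (5.46% of 6301 tested) and 286 lower (4.54%), and 518 of the calls were shared with the comparison of all nuclei. Lists that changed without these nuclei are given both ways.

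Without the meningeal-gene nuclei, the 12 genes with the largest decreases by the same rule included Thbs4, Frmpd4, Adgrv1, Dapp1, Enpp2, Tmem132b, Ap1s2, Adam23, Tox3, Nrg1 and Arhgap6, each lower in 8 of 8 libraries. Thbs4, a thrombospondin of the extracellular matrix, was at 18.1 ± 19.96 CPM in positive and 132 ± 32.8 CPM in negative nuclei (SD, n = 8; log2 fold change -2.72 ± 0.27 SE, adjusted p = 5.57e-13). Nrg1, which encodes a ligand of ErbB receptors, was at 167 ± 71.8 CPM and 395 ± 93.1 CPM (-1.20 ± 0.12 SE), so positive nuclei had less of this ligand's RNA and more of that of the receptor Erbb4. Enpp2 (autotaxin, a lysophospholipase that choroid plexus also expresses) was at 60.5 ± 23.8 CPM and 178 ± 143 CPM. The other genes named here fell by 1.18 to 1.47 on the log2 scale.

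**Figure D2:**
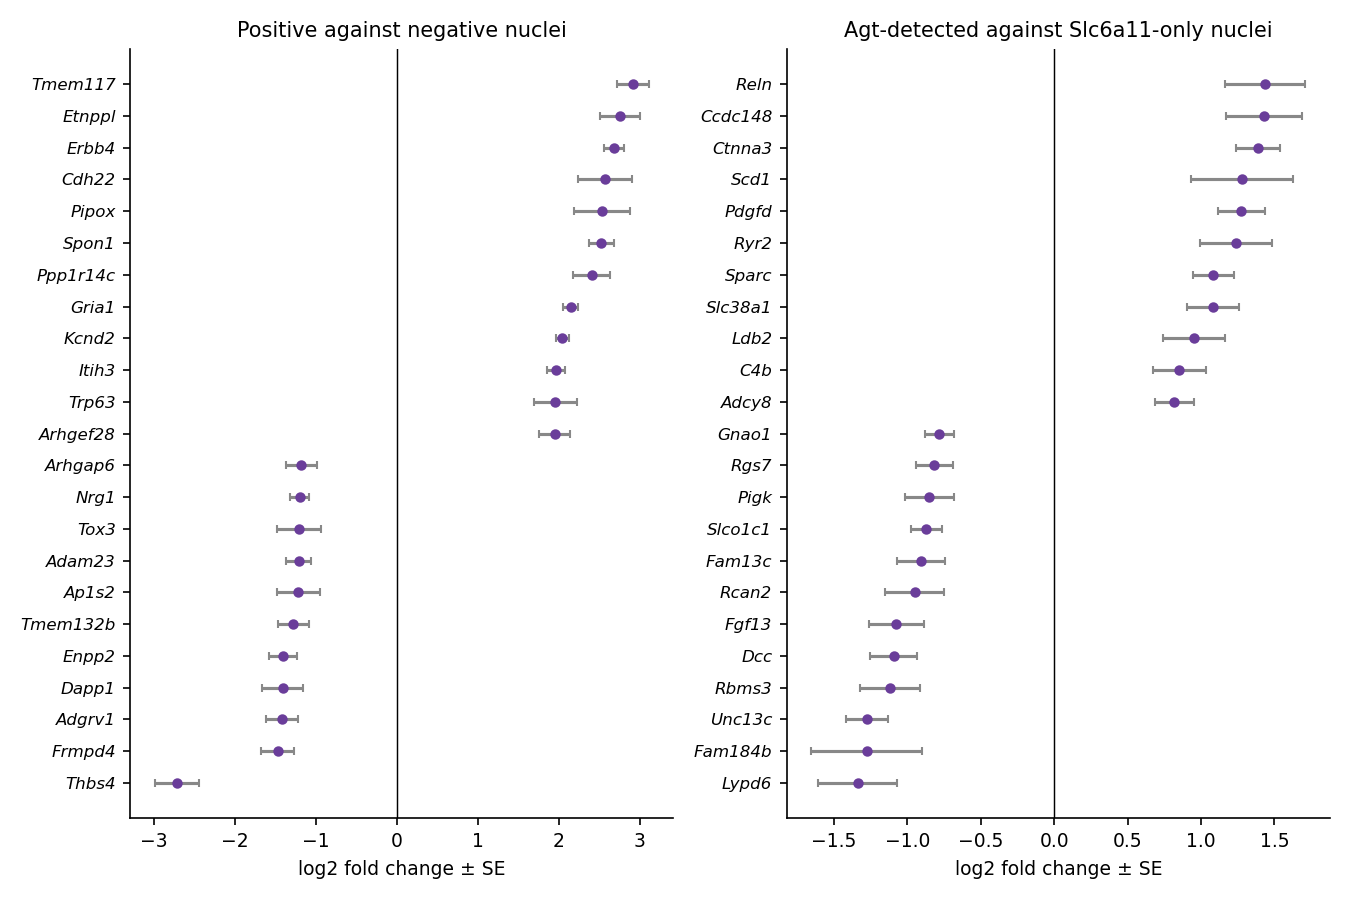
Log2 fold change with its standard error (horizontal axes) of the genes named in the text by rule, for positive against negative nuclei (left; decreases from the comparison without meningeal-gene and haemoglobin-rich nuclei) and for Agt-detected against Slc6a11-only nuclei (right). Increases on the left reach 2.92 (Tmem117) and decreases -2.72 (Thbs4), while those on the right lie between -1.34 and 1.44.

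Of the regional genes, those of non-telencephalic astrocytes went both ways. Of 16 genes of non-telencephalic astrocytes outside the gate, 9 could be tested. Itih3, Slc6a9, Sparc and Tcf7l2 were higher in positive nuclei, and Zic1, Zic2, Zic4 and Lef1 lower (list median -0.76, against -0.01 for all genes tested). The calls over all genes were 6.42% higher and 5.55% lower. Zic1, Zic2, Zic4 and Lef1 were too low to be tested once the meningeal-gene nuclei were left out, when the 4 genes that remained were all higher (list median 1.95). Slc6a9 (chr4:117834506-117875198), the glycine transporter GlyT1, was at 67.7 to 126 CPM (median 101) in positive nuclei and 12.7 to 65.3 CPM (median 25.1) in negative nuclei, and the highest negative library was TBI 2 (log2 fold change 1.81 ± 0.22 SE, adjusted p = 6.31e-09). Sparc, a secreted matrix protein, was at 274 ± 63.9 CPM and 76.9 ± 17.4 CPM (1.86 ± 0.13 SE). Tcf7l2, a transcription factor of thalamic cells and of Wnt signalling, was at 466 ± 88.7 CPM and 357 ± 54.6 CPM (0.45 ± 0.09 SE), a call that was lost in library set 1 alone (adjusted p = 0.0911).

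For the telencephalic list, all 6 tested genes had negative fold changes (median -0.55). Over all nuclei, Lhx2 (adjusted p = 0.0785), Mfge8 (0.267) and Fezf2 (0.0869) did not pass the test. Without the meningeal-gene nuclei, Lhx2 (-0.65 ± 0.21 SE, adjusted p = 0.0285), Mfge8 (-0.33 ± 0.09 SE, 0.00747) and Fezf2 (-1.13 ± 0.38 SE, 0.04) passed as lower. Lhx2, a LIM-homeodomain factor, lay at 36.95 to 45.6 CPM (median 39.4) in positive and 44.2 to 87.9 CPM (median 58.6) in negative nuclei over all nuclei, and BCAS+TBI 1 gave the highest negative value. Mfge8, a secreted bridging protein for engulfment, was at 345 ± 126 CPM and 409 ± 179 CPM. In positive nuclei its 2 library sets did not overlap, with set 1 the higher.

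Levels also followed the number of Slc6a11 and Agt UMIs, which is given as a description because nuclei are not replicates. Itih3 was at 109 CPM in nuclei with 0 UMIs, 153 with 1, 257 with 2, 334 with 3 and 540.1 with 4 or more, so nuclei just outside the threshold of 2 lay below those just inside it. Etnppl went from 36.1 to 50.1 CPM across that threshold and Slc6a9 from 34.5 to 56.7. Lhx2 did not follow this gradient below 4 UMIs: it was at 60.3, 60.2, 54.1 and 55.6 CPM and then 24.95. The lowest level was that of the 543 nuclei with 4 or more UMIs.

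**Figure D3:**
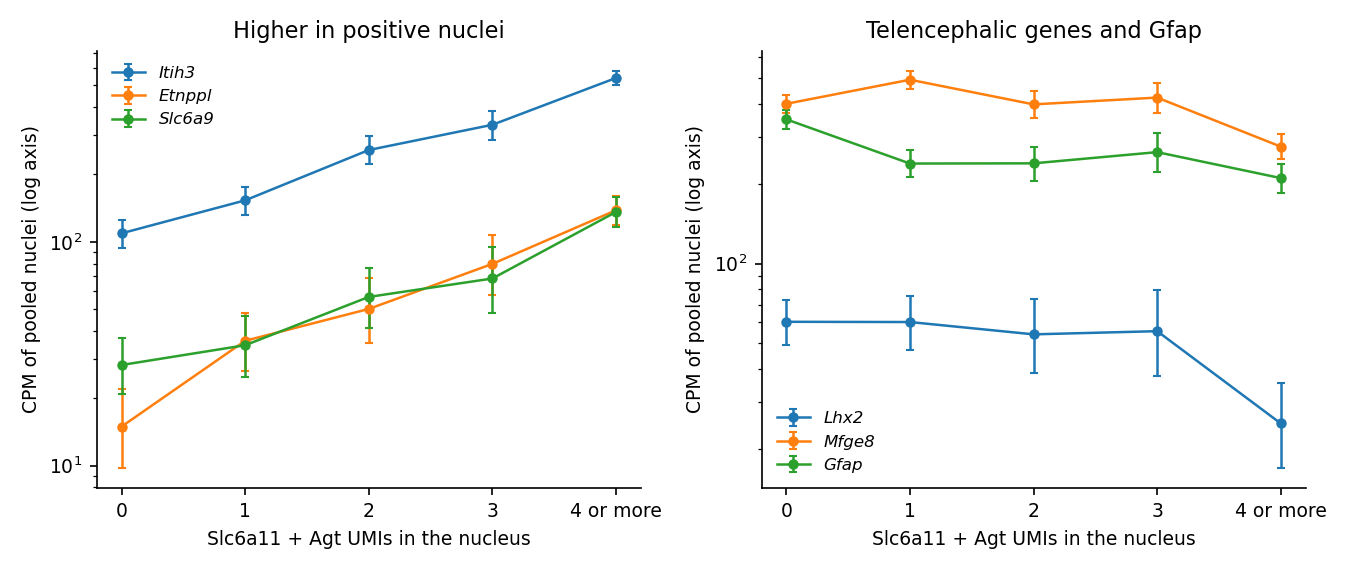
Pooled level in CPM (log axes) by the number of Slc6a11 and Agt UMIs in the nucleus, over all libraries, with exact Poisson 95% intervals that cover counting error only. Itih3, Etnppl and Slc6a9 (left) climb at each step, while Lhx2 (right) is low in nuclei with 4 or more UMIs.

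Among 11 tested genes of GABA handling beside Slc6a11, 4 rose and 1 fell in positive nuclei. Of all genes tested, 6.42% were called higher and 5.55% lower. Abat (GABA transaminase), Maob (monoamine oxidase B) and Gabbr2 (a GABA-B receptor subunit) were among those higher, and Slc6a13 (GAT-2, one of the meningeal genes above) was lower. The list median was 0.32, against -0.01 for all genes tested. Gabbr2 lay at 259 to 489 CPM (median 379) in positive and 69.6 to 199 CPM (median 139) in negative nuclei, with no overlap (1.56 ± 0.12 SE, adjusted p = 3.46e-15). Abat lay at 161 to 246 CPM (median 198) and 101 to 166 CPM (median 133), higher in 7 of 8 libraries. The call for Maob was lost without the meningeal-gene nuclei (adjusted p = 0.133), where Gabra2 and Glul passed as lower among 10 tested.

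Transporters and channels for ions and for glutamate went in different directions. Among 11 tested genes of glutamate, potassium and water handling, Kcnj10, Kcnj16 and Slc4a4 were higher and Slc1a2 and Grm3 lower (list median 0.15, against -0.01 for all genes tested). The calls over all genes were 6.42% higher and 5.55% lower. Kcnj10, the inward-rectifying channel Kir4.1 that takes up potassium, was at 219 to 429 CPM (median 289) in positive and 124 to 216 CPM (median 157) in negative nuclei (0.99 ± 0.12 SE, adjusted p = 1.23e-09). Slc4a4, a sodium bicarbonate cotransporter, was at 3057 ± 315 CPM and 1719 ± 249 CPM (0.88 ± 0.06 SE). Slc1a2, the main glutamate transporter GLT-1, was at 6095 ± 1075 CPM and 7988 ± 1042 CPM, lower in 8 of 8 libraries (-0.35 ± 0.05 SE, adjusted p = 3.33e-07). Grm3, a metabotropic glutamate receptor, was at 874 ± 259.7 CPM and 1063 ± 109 CPM (-0.25 ± 0.08 SE, adjusted p = 0.032). Without the meningeal-gene nuclei, Kcnj16 missed the threshold (adjusted p = 0.167), and Glul passed as lower.

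Of 8 tested reactive-astrocyte genes, Gfap, Cd44, Cp and Tnc fell in positive nuclei and none rose (list median -0.60, against -0.01 for all genes tested). For this list and those that follow, the calls over all genes were 6.42% higher and 5.55% lower. Gfap, the intermediate filament of reactive astrocytes, was at 223 ± 131 CPM and 330.4 ± 182 CPM, with the call lost in library set 1 alone (adjusted p = 0.111), and Tnc, a matrix glycoprotein, at 81.2 ± 26.2 CPM and 172 ± 70.5 CPM. Among synapse organisers and engulfment receptors, Sparc, Sparcl1, Gpc5 and Nlgn1 were higher and Gpc6, Chrdl1 and Thbs4 lower out of 13 tested. Of 5 tested neuromodulator receptors, Hrh1, a histamine receptor, was higher at 93.9 ± 17.3 CPM against 39.5 ± 11.4 CPM, Ednrb, an endothelin receptor, was higher, and Htr2c, a serotonin receptor abundant in choroid plexus, was lower with only 5 of 8 libraries in that direction. Choroid plexus markers summed to 20.3 to 161 CPM in positive and 4.19 to 272 CPM in negative nuclei, and their part in the Htr2c value was not tested. Genes of the other lists that passed included Hif3a as higher and Clu and Fkbp5 as lower. Without the meningeal-gene nuclei Clu, Apoe, Mertk and Mt3 passed as lower, whereas Hif3a and Nlgn1 did not pass and Fkbp5 and Cp were too low to be tested. None of the 10 tested genes of energy metabolism, 3 metallothioneins or 2 immediate early genes passed over all nuclei, and of 6 genes of glycine and serine metabolism Slc6a9 alone did. Beyond Agt, 2 of 14 renin-angiotensin genes could be tested and neither passed. Ace, the angiotensin-converting enzyme, was at or under 2.39 CPM in every library of positive nuclei, and Agtr1a, an angiotensin receptor, at or under 3.39 CPM.

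Positive nuclei were not uniform. The 675 nuclei with Agt (59 of them without Slc6a11) were compared with the 470 that had Slc6a11 only, the library again being a block. Of 4826 genes tested outside the gate, 151 passed (3.13%), of which 73 were higher (1.51%) and 78 lower (1.62%) in Agt-detected nuclei. DESeq2 called 61, and 44 passed among nuclei with 0 UMIs of the neuronal gate genes. Leaving out TBI 1, the library with most nuclei, gave 99. Median UMIs were 1962 in Agt-detected and 2223 in Slc6a11-only nuclei. Agt was detected in 61.3 to 72.6% of positive nuclei in the libraries of set 1 and in 46.03 to 53.5% in those of set 2. The part of that difference between the sets in the values that follow was not tested.

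Higher in Agt-detected nuclei, in 8 of 8 libraries, were, among others, Reln, Ccdc148, Ctnna3, Scd1, Pdgfd, Ryr2, Sparc, Slc38a1, Ldb2, C4b and Adcy8. Reln, the secreted glycoprotein reelin, lay at 35.5 to 183 CPM (median 79.2) in Agt-detected and 0 to 60.9 CPM (median 28.6) in Slc6a11-only nuclei (log2 fold change 1.44 ± 0.27 SE, adjusted p = 3.4e-05). Pdgfd, a growth factor, lay at 192 to 394 CPM (median 249) and 59.8 to 168 CPM (median 95.5), with no overlap (1.28 ± 0.16 SE, adjusted p = 4.65e-11). Sparc lay at 267 to 449 CPM (median 341) and 98.6 to 259 CPM (median 150.3), also with no overlap (1.08 ± 0.14 SE). Ctnna3, an alpha-catenin, was at 363 ± 145 CPM and 152 ± 80.8 CPM, and Slc38a1, a glutamine transporter, at 193 ± 46.96 CPM and 83.6 ± 41.5 CPM. C4b, a complement component with a near-identical copy in the mouse genome, was at 172 ± 39.6 CPM and 94.6 ± 34.2 CPM, so its reads may be shared. The call for Scd1 was lost without BCAS 1 or without TBI 1 (adjusted p = 0.0524 and 0.107) and under a stricter astrocyte gate of at least 3 UMIs of Slc1a2 with Aqp4, Slc7a10 or Fgfr3 detected (0.0616). Among nuclei with 0 neuronal gate UMIs the calls for Ccdc148, Slc38a1, Ldb2 and C4b were lost (adjusted p = 0.0995 to 0.533). In set 1 alone, with fewer libraries, Ccdc148, Scd1, Ryr2, Ldb2, C4b and Adcy8 did not pass (adjusted p = 0.0586 to 0.246), and in set 2 alone C4b did not (0.0731).

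Higher in Slc6a11-only nuclei, in 8 of 8 libraries, were Lypd6, Fam184b, Unc13c, Rbms3, Dcc, Fgf13, Rcan2, Fam13c, Slco1c1, Pigk, Rgs7 and Gnao1. Unc13c, of the Munc13 family of vesicle priming proteins, lay at 286 to 524 CPM (median 383) in Slc6a11-only and 63.2 to 238 CPM (median 167) in Agt-detected nuclei, with no overlap (log2 fold change -1.28 ± 0.14 SE, adjusted p = 4.85e-14). Slco1c1, a transporter of thyroid hormone, lay at 507 to 899 CPM (median 592) and 275 to 440.4 CPM (median 360.1), with no overlap (-0.87 ± 0.11 SE). Gnao1, a G protein alpha subunit, lay at 684 to 1129 CPM (median 832) and 344 to 642 CPM (median 484), with no overlap (-0.78 ± 0.10 SE). Dcc, a netrin receptor, was at 236 ± 91.3 CPM and 115 ± 63.7 CPM. Fam184b had the least certain value (-1.28 ± 0.38 SE) and was lost without control 1, TBI 2 or BCAS+TBI 1 (adjusted p = 0.0624 to 0.105). Rcan2 and Pigk did not pass among nuclei with 0 neuronal gate UMIs (adjusted p = 0.454 and 0.15), nor Rcan2 at 1000 to 3000 UMIs (0.21). In set 1 alone Lypd6, Rbms3, Fgf13, Rcan2 and Fam13c did not pass (adjusted p = 0.0852 to 0.64), with Fam13c at -0.45, and in set 2 alone Lypd6, Fam184b and Pigk did not (0.0607 to 0.482).

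Genes of the lists differed within positive nuclei too. Of 11 tested genes of glutamate, potassium and water handling, Slc1a2, Glul (glutamine synthetase) and Grm3 were lower in Agt-detected nuclei and none was higher. For this list and those that follow, the calls over all genes were 1.51% higher and 1.62% lower. Slc1a2 was at 5229.8 ± 969 CPM in Agt-detected and 7089 ± 1332 CPM in Slc6a11-only nuclei (-0.45 ± 0.06 SE, adjusted p = 1.37e-10). Among 8 tested synapse organisers and engulfment receptors, Sparc and Sparcl1 were higher and Gpc5, Gpc6 and Mertk were among those lower. Mertk, an engulfment receptor, lay at 409 to 577 CPM (median 493) and 623 to 925 CPM (median 680.1), with no overlap (-0.54 ± 0.10 SE). Gfap was higher in Agt-detected nuclei in 7 of 8 libraries (0.63 ± 0.15 SE, adjusted p = 0.00394), as were Apoe in 6, Slc16a1, a lactate transporter, in 7, and Ednrb in 7. Itih3 was at 442 ± 128 CPM and 390.1 ± 111 CPM and did not pass (adjusted p = 0.807), whereas Etnppl did (0.80 ± 0.21 SE, adjusted p = 0.00887). Gabbr2 was higher and Mfge8 lower in Agt-detected nuclei. Aqp4, the water channel and a gate gene, is given without a test: it was at 1051 ± 216 CPM in Agt-detected and 665 ± 98.4 CPM in Slc6a11-only nuclei.

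The share of positive nuclei among gated astrocyte nuclei was compared between libraries with and without each surgery. Replicate 1 of the controls had 42.9% and replicate 2 had 47.9%, the BCAS libraries had 46.1% and 45.04%, those with TBI alone 43.5% and 38.9%, and those with both surgeries 38.3% and 36.7%. Libraries with TBI averaged 39.4 ± 2.94% (SD, n = 4) and those without 45.5 ± 2.08%, and TBI 1 overlapped with control 1 (exact two-sided permutation test over 70 assignments, p = 0.0571, 0.114 adjusted over 2 surgeries). Each nucleus was also thinned to 1000 UMIs in 1 random draw, and the astrocyte gate was applied again to the thinned counts. This left out 156 shallower gated nuclei (5 to 48 a library), and thinning could move other nuclei out of the gate or into it. The share was then 20.6 ± 2.46% with TBI and 27.6 ± 3.78% without (exact permutation test, p = 0.0286, the smallest this design allows, 0.0571 adjusted). The libraries did not overlap, but only narrowly: TBI 1 had 103 of 429 nuclei (24.01%) and control 2 had 79 of 326 (24.23%). For BCAS the shares were 41.5 ± 4.73% with and 43.3 ± 3.69% without (p = 0.571, exact permutation test), and the direction turned after thinning, to 24.6 against 23.6%. Within library sets, the difference with TBI was -4.41 percentage points (set 1) and -7.88 (set 2), and permuting within the sets gave p = 0.111 (exact, 36 assignments, 0.222 adjusted). Under the stricter astrocyte gate the difference was -4.40 points (exact permutation test, p = 0.143, 0.286 adjusted). As a share of all barcodes past the filters, the difference with TBI was -0.411 points (exact permutation test, p = 0.571). Over all gated nuclei summed, Slc6a11 itself was at 582 to 723 CPM in libraries with TBI and 740 to 889 CPM in those without, given with no test. Agt was at 163 to 308 CPM with TBI and 181 to 502 CPM without, so its ranges overlapped. Since the share counts nuclei by UMIs of these genes, fewer such nuclei and less of this RNA per nucleus cannot be told apart.

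**Figure D4:**
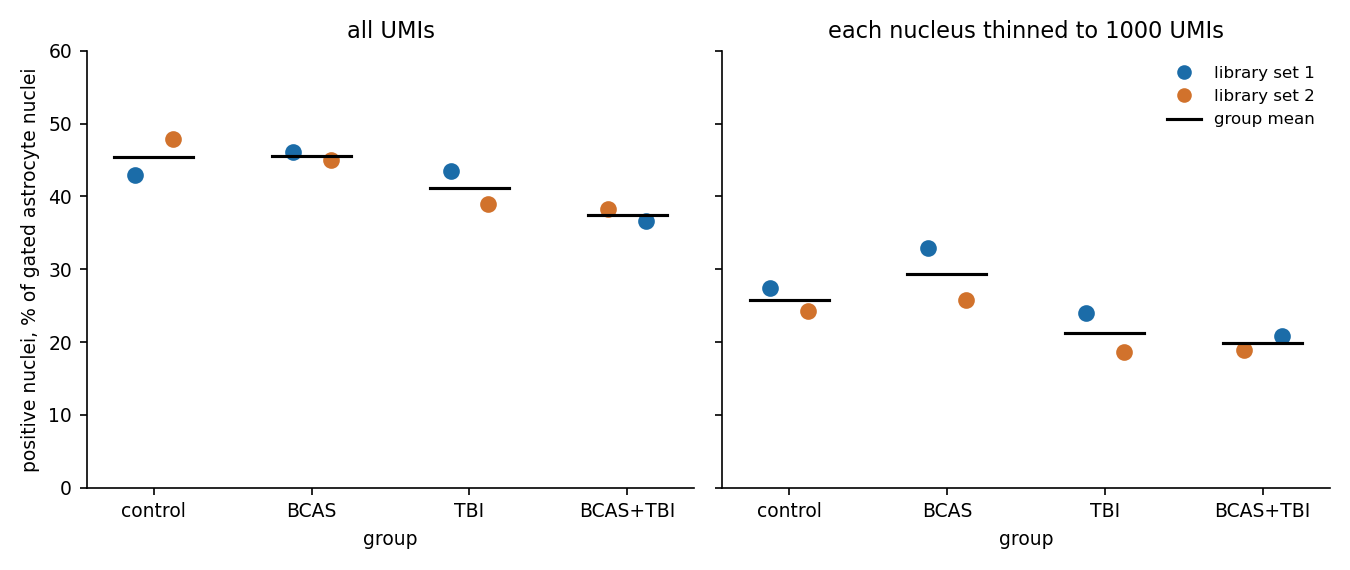
Positive nuclei as a percentage of gated astrocyte nuclei in each library (points, coloured by library set) and group means (bars across), with all UMIs (left) and after thinning (right). On the right, each nucleus was thinned to 1000 UMIs and gated again on the thinned counts. The 4 libraries with TBI lie between 36.7 and 43.5% on the left, and after thinning between 18.6 and 24.01%, below the 24.2 to 32.9% of the libraries without it.

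A relation of the share of positive nuclei to the neurons in the sampled tissue was not detectable. Its correlation over the 8 libraries with the share of neurons that had Slc17a6 and Tcf7l2, genes of thalamic excitatory neurons, was Pearson r = 0.19 (p = 0.64) and Spearman rho = 0.33 (p = 0.428), by exact permutation. With the share of neurons that had Baiap3 and Resp18, genes of peptidergic neurons, r was 0.22 (p = 0.605) and rho 0.17 (p = 0.703). Both r have an adjusted p of 0.64 over the 2 relations. Without the 2 libraries farthest from the median of the neuron share, r was 0.46 and 0.03. With the thinned share, r was -0.48 and 0.61. The libraries fall into 2 sets by depth, within which 4 libraries are too few for a test.

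The surgeries were then compared within positive nuclei, with 2 libraries in each group. No gene of 6650 passed in any of the 5 comparisons (0% called in each): TBI averaged over BCAS, BCAS averaged over TBI, both surgeries against control, both against TBI alone, and the interaction. Unadjusted p-values under 0.05 were found for 93, 72, 84, 85 and 91 genes in that order. DESeq2 also called 0 in each. With the library set as a block, added after seeing the data, 0 passed as well, and 275, 228, 229, 271 and 312 had unadjusted p-values under 0.05. The 5 comparisons share libraries. Whether the difference between positive and negative nuclei changed with a surgery was tested as well: 3 genes passed for TBI (0.0451% of 6657, all 3 in the lower direction) and 4 for BCAS (0.0601%), of which none was left once the meningeal-gene and haemoglobin-rich nuclei were removed.

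Gfap and Nnat had the smallest p-values for TBI once the library set was a block. Gfap was at 487 CPM in TBI 1, 321 in BCAS+TBI 2, 265 in BCAS 1 and 123 in control 1, the libraries of set 1. In set 2 it was at 123 CPM for control 2, 103 for BCAS 2, 191 for TBI 2 and 169 for BCAS+TBI 1. Within each set the libraries with TBI lay above those without, but over all libraries BCAS 1 overlapped with them. Its log2 fold change with TBI was 0.98 ± 0.37 SE without the block (adjusted p = 1) and 0.90 ± 0.19 SE with it (adjusted p = 0.422). Leaving out 1 library moved the value without the block between 0.50 (without TBI 1) and 1.37 (without BCAS 1). In negative nuclei of the same libraries, Gfap ranged from 171 to 731 CPM and its change was 1.09 ± 0.30 SE without the block (adjusted p = 1) and 1.03 ± 0.18 SE with it (adjusted p = 0.000925), so it passed with the added block alone. The difference between positive and negative nuclei in this change was tested and did not pass: -0.11 ± 0.23 SE, adjusted p = 0.999.

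Nnat, neuronatin, a small membrane proteolipid from an imprinted gene, was at 622 CPM in TBI 1, 575 in BCAS+TBI 2, 1440.4 in BCAS 1 and 1672 in control 1, the libraries of set 1. In set 2 it was at 894 CPM for control 2, 417 for BCAS 2, 499 for TBI 2 and 475 for BCAS+TBI 1. Libraries without TBI were high except BCAS 2, which was the lowest of all. The log2 fold change with TBI was -0.90 ± 0.17 SE with the library set as a block (adjusted p = 0.267), and without the block its adjusted p was 1. With the block, Nnat passed, as the only gene, when nuclei with meningeal or haemoglobin genes were left out (adjusted p = 0.0262), and under the stricter astrocyte gate (adjusted p = 0.0165). It also passed when control 1, control 2, BCAS 2, TBI 2 or BCAS+TBI 1 was left out (adjusted p = 5.45e-06 to 0.0373), and Gfap passed without control 2 (0.00161) or TBI 2 (0.0143). Nnat did not pass with the block when BCAS 1, TBI 1 or BCAS+TBI 2 was left out, nor among nuclei with 0 neuronal gate UMIs. At a threshold of 4 UMIs the adjusted p of Nnat with the block was 4.14e-05. Without the block, its change was -0.44 when BCAS 1 was left out and between -1.32 and -0.74 with any other library left out. In negative nuclei its change was -0.45 ± 0.48 SE without the block (adjusted p = 1) and -0.49 ± 0.17 SE with it (adjusted p = 0.702). The difference between positive and negative nuclei in its change was -0.49 ± 0.19 SE (adjusted p = 0.999), -0.10 ± 0.18 SE without the meningeal-gene nuclei and 0.03 ± 0.19 SE under the stricter gate.

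**Figure D5:**
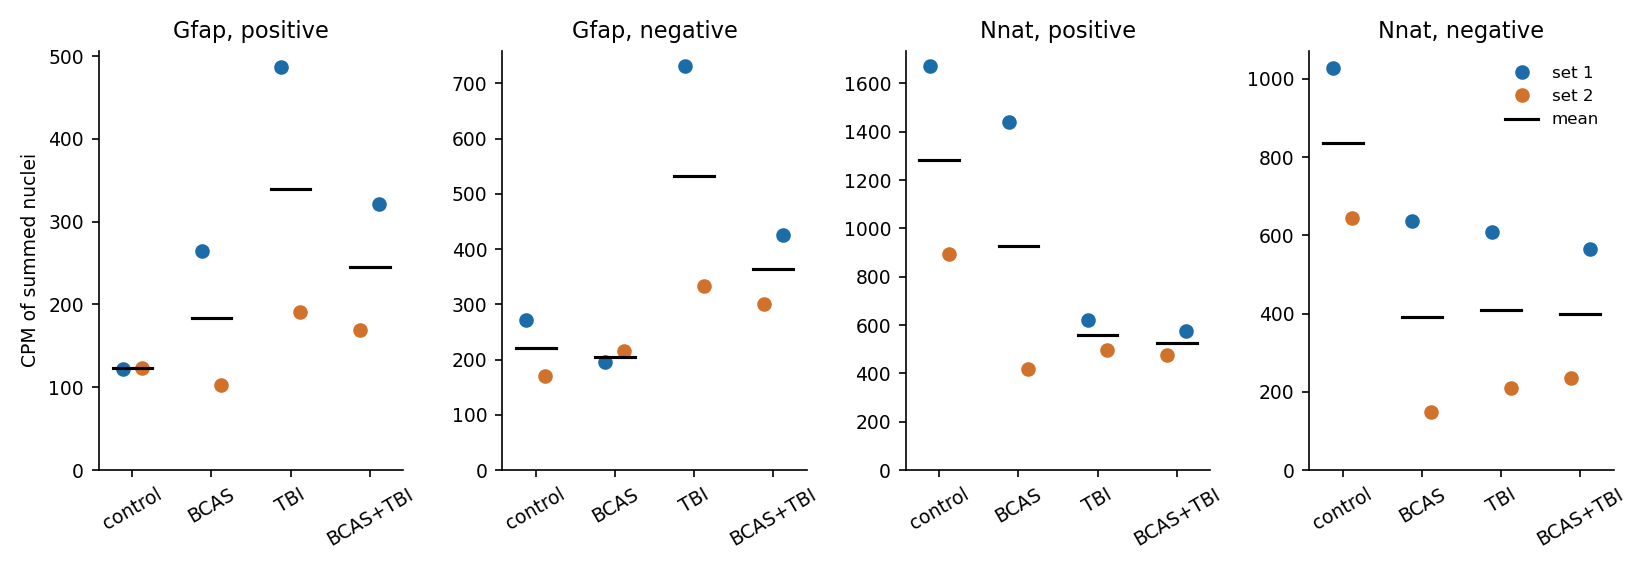
Gfap and Nnat in CPM (vertical axes, starting at 0, with separate scales) by group in positive and in negative nuclei, with libraries as points coloured by library set and group means as bars across. In positive nuclei Gfap is highest in TBI 1 (487 CPM), and Nnat in control 1 (1672 CPM).

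Further genes were named by rule for a surgery. For TBI these were Rint1 (log2 fold change 1.42 ± 0.34 SE), Trmt1l (1.07 ± 0.29 SE) and Trp63 (-1.03 ± 0.31 SE), all at adjusted p = 1. Rint1 acts in vesicle transport, Trmt1l is a tRNA methyltransferase-like protein, and Trp63 is a p53-family factor that was among the genes higher in positive nuclei. For BCAS they were Ccdc148 (0.86 ± 0.25 SE), Iars (-1.33 ± 0.39 SE), Vps53 (1.15 ± 0.35 SE) and, with the block, Eif2b3, Usp29 and Reln. Ccdc148 (1.41 ± 0.36 SE), Tcn2 and Eif2b3 had the smallest p-values for BCAS+TBI against TBI alone, with Slc25a21 when the set was a block. Trmt1l, Ttc8 and Apoo had them for BCAS+TBI against control, with Nnat and Syndig1 under the block, and Ptprn, Stk32a and Stat3 for the interaction, with Frmpd4, Slc25a21 and Soat1 under the block. None of these passed over all positive nuclei and libraries. Frmpd4, a postsynaptic scaffold gene, came closest (-3.32 ± 0.62 SE, adjusted p = 0.183 with the block). With the block, Frmpd4 passed among nuclei with 0 neuronal gate UMIs (0.00817) and under the stricter astrocyte gate (0.0135), but not at a threshold of 4 UMIs. The change was -3.36 without TBI 1, -4.62 without BCAS+TBI 1 and -3.05 without BCAS+TBI 2. Its level was low and uneven, at 47.3 ± 48.9 CPM (SD) in positive nuclei without the meningeal-gene nuclei. In Slc6a11-only nuclei Frmpd4 had 48 UMIs in all, and BCAS 2 was the highest library at 126 CPM (median 26.3). For BCAS+TBI against control, Nnat passed with the block when BCAS 1, BCAS 2, TBI 1, TBI 2 or BCAS+TBI 1 was left out (adjusted p = 0.000325 to 0.0218) and at a threshold of 4 UMIs (0.00121). Eif2b3 passed for BCAS+TBI against TBI at that threshold (adjusted p = 0.031).

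Lists gave no call either. All 6 tested genes of the reactive-astrocyte list had positive fold changes with TBI, with a median of 0.74 against 0.00 for all genes: Gfap, Vim (1.13 ± 1.01 SE), Serpina3n (0.76 ± 0.80 SE), Tnc (0.31 ± 0.34 SE), Stat3 (0.28 ± 0.23 SE) and Aspg (0.71 ± 0.43 SE). The standard error was close to or above the change for Vim, Serpina3n and Tnc. The GABA handling list had a median of -0.13 with TBI over 11 tested genes, and the glutamate, potassium and water list -0.01 over 14. Slc6a11 and Agt themselves changed by -0.18 ± 0.19 and -0.12 ± 0.37 (SE) with TBI, given without a test because they define the nuclei. Itih3 changed by -0.04 ± 0.20 SE and Etnppl by -0.12 ± 0.24 SE (adjusted p = 1 for both).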

How the data were processed

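Single-nucleus RNA-seq (10x 3′) was measured in 8 libraries, 2 for each surgery group. The authors deposited whole-number UMI counts per gene and barcode, and the file headers name Cell Ranger 7.0.0 as the software. GRCm38/mm10 and Seurat are named in the submitters' processing notes, with no role given, and the annotation release is not given in the sources used here. The target was about 3000 droplets a library, per the labels' protocols.

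Of 53390 barcodes, 48468 passed the filters. Counts of the nuclei in a class were summed per library and tested with edgeR 4.0.16 (quasi-likelihood, TMM, filter at a minimum count of 10, adjusted p under 0.05) in R 4.3.3. The library was a block between classes, and all 8 libraries entered each group comparison without a block. DESeq2 1.42.0 was an alternative. Fold changes are log2, with SE. The 16 gate and definition genes stayed out of the counts of calls. Shares and correlations were tested by exact permutation in scipy 1.17.1. The tests were checked on simulated data drawn without a difference between the library sets, so the check does not cover such a difference. Alternatives covered normalization, low counts, depth, neuronal UMIs, thresholds, library sets and each library left out.

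Doublets were scored with Scrublet in scanpy 1.11.5. The 6% highest scores held 8 positive nuclei, and 5 positive nuclei had more than 3 times the median UMIs for that class within a library. Both were kept, and leaving them out was an alternative. Genes were named by a rule: the 12 largest fold changes in each direction with an adjusted p under 0.05, the same direction in all 8 libraries and a mean of at least 50 CPM in the higher class, leaving out gate, predicted and mitochondrial genes. For surgeries, the smallest p-values were named. Counts over lists include genes that are not reported here by name. Members and lists were chosen with earlier results of these data known. The labels call the libraries of a group biological replicates but do not describe the animals in each, so p-values measure the spread between these libraries. Intervals cover counting error only.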

Additional observations from a re-analysis of the deposited data

Results flagged for a closer look

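The difference between positive and negative nuclei was also tested for whether it changed with each surgery, with the library as a block (edgeR, Benjamini-Hochberg over 6657 genes). For TBI, 3 genes passed (0.0451%), and the difference between the classes was more negative with TBI in each. They were Hbb-bs (log2 difference -3.83 ± 0.53 SE, adjusted p = 5.44e-06) and Hba-a1 (-3.24 ± 0.49, 4.83e-05), which encode haemoglobin chains, and Slc2a13 (-1.96 ± 0.40, 0.0205), an inositol transporter. For BCAS, 4 genes passed (0.0601%): Hbb-bs (-3.13 ± 0.47, 7.7e-05), Hba-a1 (-2.72 ± 0.45, 0.000387), Trpm3 (0.76 ± 0.14, 0.00146), a cation channel, and Ptgds (1.03 ± 0.21, 0.0164), prostaglandin D2 synthase.

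Of the haemoglobin UMIs, 1703 lay in 1 negative nucleus of BCAS+TBI 2, out of its 2520 UMIs, and 94 in 1 negative nucleus of TBI 1. Hba-a1 has a near-identical copy in the genome. Without those nuclei and the meningeal-gene nuclei 0 genes passed for either surgery, and Hbb-bs was at -0.40 ± 0.44 for TBI and 0.19 ± 0.43 for BCAS. Slc2a13 was then at -1.06 ± 0.45 (adjusted p = 1), Trpm3 at 0.62 ± 0.13 (adjusted p = 0.121) and Ptgds at -0.01 ± 0.24. DESeq2 called 0 for either surgery, with Trpm3 at 0.77 ± 0.21 and an unadjusted p of 0.000342.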

How the results depend on the processing

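Between positive and negative nuclei, 796 genes passed, and 444 passed under DESeq2, 522 after thinning to 1000 UMIs, 358 in library set 1 alone and 522 in set 2 alone, where fewer libraries were tested. Leaving out 1 library gave 670 to 769. Between Agt-detected and Slc6a11-only nuclei, 151 passed, against 61 under DESeq2, 44 with 0 neuronal gate UMIs, 87 at 1000 to 3000 UMIs, 33 in set 1 and 78 in set 2, and 99 to 149 with 1 library left out, the lowest without TBI 1. For the surgeries, 1 gene passed for TBI with no filter on low counts, and 0 with any library left out in all 5 comparisons.

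Replicate numbers are given by the labels, but same-numbered libraries did not deviate together in every pair of groups: correlations of deviations were 0.351 to 0.453 among control, BCAS and TBI, and -0.542 to -0.422 with BCAS+TBI. With the replicate number as a block, 0 genes passed for each surgery comparison. The crossed numbers equal the library sets. With the set as a block, TBI gave 3 genes at a threshold of 4 UMIs, 1 without meningeal-gene nuclei, 1 under the stricter astrocyte gate and 0 to 4 with 1 library left out. BCAS gave 0 to 2. BCAS+TBI gave 1 at a threshold of 4 UMIs and 0 to 2 against control, and 2 and 0 to 1 against TBI. The interaction gave 1 with 0 neuronal gate UMIs, 1 at 4 UMIs, 2 under the stricter gate and 0 to 3.

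The change of the class difference with TBI passed for 3 genes, against 0 under DESeq2, 5 with no filter, 1 with 0 neuronal gate UMIs, 0 without meningeal-gene nuclei, 1 under the stricter gate (Myoc, 5.18 ± 1.03 SE) and 0 to 4 with 1 library left out (1 without BCAS 1 and 0 without BCAS+TBI 2). That with BCAS passed for 4, against 0 under each of DESeq2, 0 neuronal gate UMIs, no meningeal-gene nuclei and the stricter gate, and 0 to 9 with 1 library left out (9 without BCAS 2, 0 without TBI 1, 1 without BCAS+TBI 2, and 2 without TBI 2 or BCAS+TBI 1). The difference in the share of positive nuclei with BCAS turned to 1.03 points after thinning and to 1.18 at a threshold of 4 UMIs. The correlation with Slc17a6 and Tcf7l2 neurons turned to -0.477 after thinning, and ranged from -0.0968 to 0.657 with 1 library left out, negative without control 2 (-0.0968) or BCAS+TBI 2 (-0.0259). Where no cause is given above, the cause was not tested. Of the values for named genes, 1229 kept direction and side of the threshold, 40 fell below it and 11 rose past it.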

Other observations

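Among all gated astrocyte nuclei, pooled over libraries, Slc6a11 was detected in 77.97% of the 790 nuclei with Agt (exact binomial 95% interval 74.9 to 80.8%) and in 51.3% of the 1881 without it (49.02 to 53.6%), at medians of 1925 and 1937 UMIs. These shares are a description, because nuclei are not replicates and both genes define the positive nuclei. Agt over all gated nuclei was at 302 to 502 CPM in the libraries of set 1 and 163 to 183 CPM in those of set 2. The part of that difference in these shares was not tested. Among neuron markers of the thalamus, Rora and Tcf7l2 passed as higher in positive than in negative nuclei and Synpo2 as lower, out of 4 tested. Lhfpl3, on the list of oligodendrocyte precursors, also passed as higher, both against negative nuclei and in Agt-detected against Slc6a11-only nuclei. Of the renin-angiotensin genes beside Agt, 2 were tested between Agt-detected and Slc6a11-only nuclei, and neither passed (edgeR).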
